A study of Mus musculus with 9 samples.

Results

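The granins and the enzymes that cut prohormones were followed as 10 genes in RNA-Seq data from GT1-7-OX1 cells. These genes were chosen by name, with earlier results of these data known. The set held the granins Vgf, Chga, Chgb, Scg2, Scg3 and Scg5, the convertase genes Pcsk1 and Pcsk2, the convertase inhibitor gene Pcsk1n and the carboxypeptidase gene Cpe. All 10 were listed among the 37411 genes of the deposited tables. GT1-7 is a mouse line of hypothalamic neurons that secrete gonadotropin-releasing hormone (GnRH). It came from a tumor driven by SV40 T-antigen under the GnRH promoter. GT1-7-OX1 cells stably carry the human OX1 orexin receptor, delivered by a lentivirus together with copGFP. By the paper's methods, transduced cells with the strongest GFP signal and little toxicity under the microscope were expanded. Whether single clones were isolated is not stated. All 3 groups were of these cells and so carried the receptor and the vector. They were given fresh medium with water (vehicle, collected after 8 h), with 200 nM orexin A for 3 h (OxA 3 h) or with 200 nM orexin A for 8 h (OxA 8 h), with 3 cultures per group. Orexin A (OxA) is a hypothalamic peptide that activates OX1. Vehicle was sampled at 8 h alone, so the OxA 3 h cultures differed from vehicle in OxA and also in the time since the medium change, and these cannot be told apart. The OxA 8 h and OxA 3 h cultures likewise differed both in the length of OxA treatment and in the time since the medium change. Both comparisons with vehicle used the same 3 vehicle cultures.

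Granins are acidic proteins that pack into the dense-core vesicles of neurons and endocrine cells, where they help peptides condense and enter the regulated secretory pathway. Many granins are precursors themselves. VGF, a protein named for its induction by nerve growth factor, and the secretogranins are cut at pairs of basic residues into peptides with actions on feeding, energy balance and synapses. The cuts are made by prohormone convertases, encoded in this set by Pcsk1 and Pcsk2, and carboxypeptidase E (Cpe) then trims the basic residues that remain. Scg5 encodes the chaperone that the Pcsk2 product needs to become active, and Pcsk1n encodes proSAAS, an inhibitor of the Pcsk1 product. In hypothalamic neurons this machinery makes the releasing hormones and the feeding peptides.

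The cultures held 16217786 to 20445364 counts assigned to genes, and vehicle (17293093 to 18168541) lay within that range. Of 10 genes listed as markers of neurons and of the GnRH line, 8 reached 2 TPM (a transcript level scaled by gene length and by the total of the culture) in vehicle. Snap25 (0.109 TPM) and Stmn2 (0.019 TPM), a pair of pan-neuronal genes, were near 0. The summed level of this list, most of it Gnrh1, was 3911 to 4490.2 TPM in vehicle, 4019.7 to 4245 TPM in OxA 3 h and 3203 to 3372 TPM in OxA 8 h, and without Gnrh1 it was 335 to 351 TPM, 270.2 to 281 TPM and 311 to 314 TPM. Of its 8 tested genes, 0 rose and 4 fell at 3 h by edgeR (Six6, Tubb3, Dlx5 and Map2), and 0 rose and 2 fell at 8 h (Gnrh1 and Map2). Of all genes tested, 20.2% rose and 18.7% fell at 3 h, and 15.3% and 13.1% at 8 h. Six6, a homeobox gene of GnRH neurons, went from 116 ± 1.04 TPM in vehicle to 83.7 ± 5.25 TPM in OxA 3 h and 109 ± 3.85 TPM in OxA 8 h. The part of these markers in the results below was not tested. Of 10 listed markers of other endocrine cells, 9 were in the table and 0 reached 2 TPM in vehicle. The markers of other cell types reached 2 TPM for 2 of 15 genes, with Col1a1 the higher at 7.52 TPM. Their summed level was 13.0 to 15.1 TPM in vehicle, 12.1 to 12.6 TPM in OxA 3 h and 11.3 to 14.0 TPM in OxA 8 h. In bulk RNA, fewer cells that express a gene and less RNA per cell cannot be told apart.

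To see which parts of the secretory machinery the line expressed without OxA, the members were ordered by TPM in vehicle. The set was strongly unequal. Scg5 was highest at 89.1 ± 5.90 TPM (SD, n = 3), followed by Cpe at 68.7 ± 6.94 TPM, Pcsk1n at 35.7 ± 3.58 TPM and Vgf at 26.1 ± 3.10 TPM. The ranges of these 4 genes over the vehicle cultures did not overlap. Chgb, which encodes a granule core protein, stood at 3.83 ± 0.283 TPM and Pcsk2 at 3.10 ± 0.207 TPM. The chaperone gene Scg5 was thus listed at 27.7 to 29.7 times the TPM of Pcsk2 in the vehicle cultures, and Cpe at 22.3 ± 3.13 times (mean and SD of the 3 ratios). Scg3 (0.199 ± 0.0811 TPM) and Chga (0.152 ± 0.0748 TPM) were lower still, and their ranges overlapped. Pcsk1 and Scg2 were listed at 0 in every vehicle culture.

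**Figure D1:**
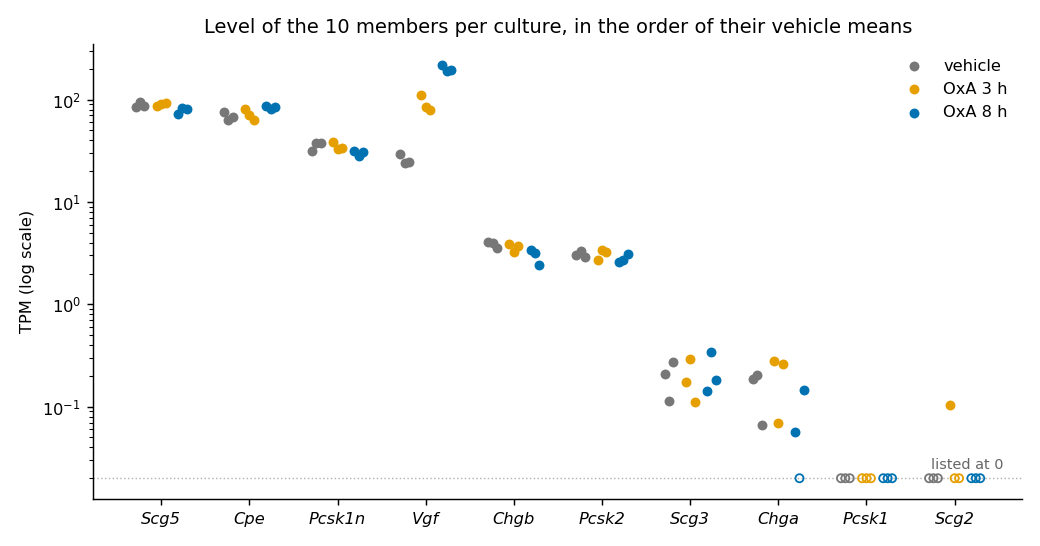
TPM (log scale) of the 10 members in each of the 9 cultures, in the order of their vehicle means, with gray for vehicle, orange for OxA 3 h and blue for OxA 8 h. Open circles on the dotted line are cultures listed at 0, as in all 9 cultures for Pcsk1. Vgf climbs from 26.1 TPM on average in vehicle past every other member in OxA 8 h, where its 3 cultures average 200.8 TPM.

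The 4 genes at the bottom of this order had too few reads for a test in any comparison. Pcsk1, at chr13:75089826-75134861 on the plus strand (GRCm38, GENCODE M21), encodes the convertase that starts the cutting of many prohormones. It had 0 counts in all 9 cultures, which allows a level of up to 0.0186 CPM (counts scaled to a fixed library total; 3 counts of the 161121896 in total). Scg2 (chr1:79434669-79440120, minus strand), the precursor of secretoneurin, had 2 counts in OxA 3 h replicate 1 and 0 in the other 8 cultures.

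Chga, the chromogranin A gene (chr12:102554969-102565028, plus strand), had 3, 3 and 1 counts in vehicle, 4, 1 and 4 in OxA 3 h and 1, 0 and 2 in OxA 8 h. The summed counts gave a ratio of 1.33 for OxA 3 h to vehicle, with a 95% exact interval of 0.441 to 4.21 that covers counting error only. The ratio for OxA 8 h to vehicle was 0.402 (0.0670 to 1.76). Scg3, a granin that binds the granule membrane (chr9:75643189-75684056, minus strand), had 4, 2 and 5 counts in vehicle, 3, 5 and 2 in OxA 3 h and 3, 7 and 3 in OxA 8 h. Its ratios to vehicle were 0.942 (0.359 to 2.44) at 3 h and 1.11 (0.458 to 2.73) at 8 h. For both genes the groups overlapped, and a change was not detectable at this depth.

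Promoters of 8 of the 10 members were matched in RefSeq (GRCm38.p6, 250 bases before to 50 bases after the start), all but Vgf and Cpe. They were searched for the cAMP response element TGACGTCA, the site bound by CREB family factors, and for its 5-letter core TGACG on either strand, which the full element contains on both strands. The full element was present in 3 of the 8 promoters, those of Chgb, Scg2 and Pcsk1, and in 1.79% of 32851 mouse promoters of the same length. The core was present in 7 of the 8, all but Pcsk1n, and in 20.8% of all promoters. The stretches below are those of the 3 genes that carry the full element. Chga, with a core alone, is given beside them. Chgb was not called in any comparison, and Scg2 and Pcsk1 were too low to be tested. The promoter of Vgf was not searched, and the part of the element in any change was not tested. Capitals mark the full element, or the core in Chga, each read 5′ to 3′ on the strand of the gene.
Chgb: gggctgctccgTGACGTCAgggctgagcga
Scg2: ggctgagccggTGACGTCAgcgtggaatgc
Pcsk1: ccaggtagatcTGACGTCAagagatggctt
Chga: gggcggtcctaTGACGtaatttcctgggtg
The Chgb stretch lies at chr2:132781559-132781588 on the plus strand, with its element beginning 72 bases before the RefSeq start. The Scg2 stretch lies at chr1:79440076-79440105 on the minus strand, with its element beginning 68 bases before the start. GENCODE M21 places an exon over both. The Pcsk1 stretch (chr13:75089768-75089797, plus strand, 78 bases before the start) and the Chga stretch (chr12:102554886-102554915, plus strand, 44 bases before the start) lie outside the gene models. A match is a description of the sequence, and binding at these positions was not measured here.

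The remaining 6 members, Vgf, Chgb, Scg5, Pcsk2, Pcsk1n and Cpe, passed the filter on low counts in all 3 comparisons, and each also passed it within the vehicle cultures alone. Their values per culture are given as normalized counts, which are raw counts scaled to a common library of 17913049 counts. Genes were called at an adjusted p under 0.05 by edgeR's quasi-likelihood test with Benjamini-Hochberg adjustment over all genes tested.

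Vgf rose with OxA at both times and stood higher at 8 h than at 3 h. The gene lies at chr5:137026392-137033351 on the plus strand. Vehicle cultures held 707, 552 and 580 normalized counts of Vgf. OxA 3 h cultures held 2799.5, 2085 and 1935, and OxA 8 h cultures held 5422, 4540.4 and 4722. No value of 1 group overlapped that of another, and the culture numbered 1 had the most Vgf in each group.

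At 3 h the log2 fold change of Vgf was 1.89 (SE 0.19, adjusted p = 0.00130), which is a 3.71-fold rise with a 95% interval of 2.62 to 5.24. It ranked 125 by fold change among the 15352 genes tested. At 8 h the log2 fold change was 2.99 (SE 0.10, adjusted p = 1.71e-07), or 7.95-fold with an interval of 6.73 to 9.40, and its rank was 24 among 15407 genes. Between 3 h and 8 h of OxA, Vgf rose a further 2.15-fold, with an interval of 1.60 to 2.90 (log2 fold change 1.11, SE 0.16, adjusted p = 0.00753). In level, Vgf went from 26.1 ± 3.10 TPM in vehicle to 91.9 ± 17.0 TPM in OxA 3 h and 200.8 ± 16.2 TPM in OxA 8 h. Its place by mean TPM among all 37411 genes moved from 5694 to 1502 and then to 476. Vgf was called in every alternative fit tried.

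**Figure D2:**
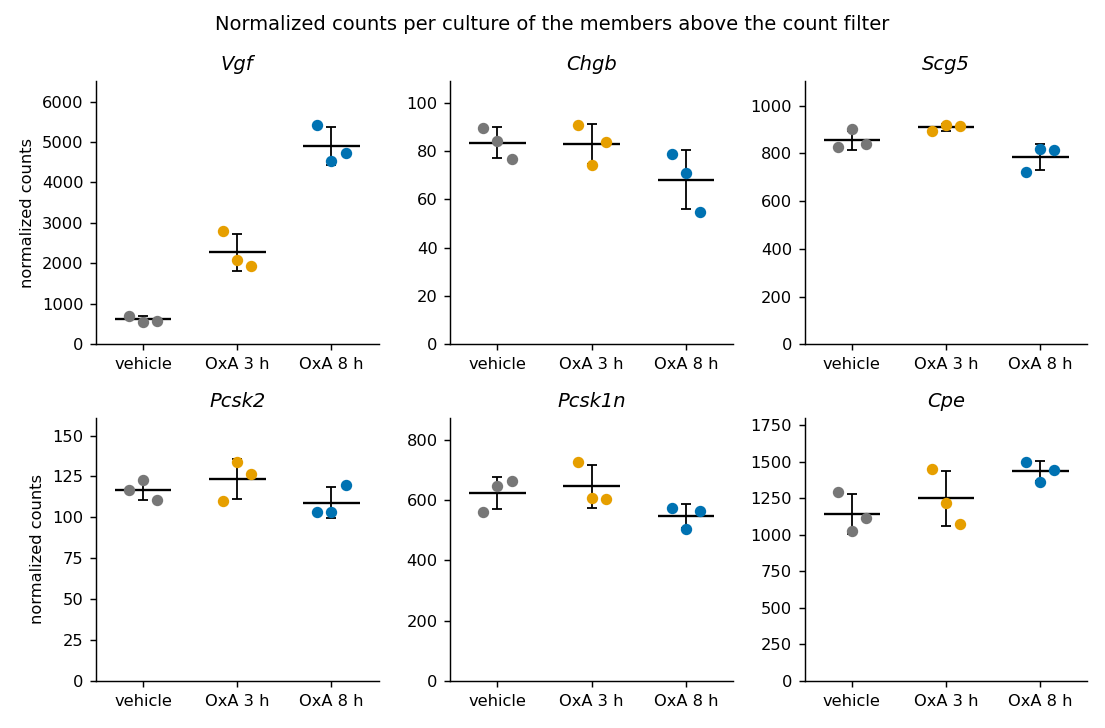
Normalized counts of the 6 tested members in each culture, with the vertical axis of each panel starting at 0. Points are the cultures (gray vehicle, orange OxA 3 h, blue OxA 8 h), horizontal lines the group means and bars 1 SD (n = 3). Vgf separates fully between groups, from 552 to 707 in vehicle up to 4540.4 to 5422 in OxA 8 h, and the other panels show small differences on their own scales.

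Cpe was the second member to rise, and only its difference at 8 h passed the test. Cpe (chr8:64592542-64693054, minus strand) encodes the enzyme that removes C-terminal lysines and arginines after the convertases have cut. Its normalized counts were 1289, 1022 and 1114 in vehicle. They were 1452, 1218 and 1076 in OxA 3 h, overlapping the vehicle values, and 1500.2, 1363 and 1446 in OxA 8 h, above all vehicle values. At 3 h the log2 fold change was 0.13 (SE 0.12, adjusted p = 0.441), with a 95% interval of the fold change from 0.907 to 1.32. At 8 h it was 0.33 (SE 0.070, adjusted p = 0.00175), a 1.25-fold rise with an interval of 1.13 to 1.39. This call was lost when all 3 groups entered one fit, with the same log2 fold change of 0.33 and an adjusted p of 0.0533. Over the alternatives of this value the adjusted p ranged from 7.02e-08 to 0.0533. Between 3 h and 8 h Cpe was not called (0.20, SE 0.088, adjusted p = 0.113). Without OxA 3 h replicate 1, the highest culture of that group, this value was 0.32 with an adjusted p of 0.000190, and with the replicate number as a block it was 0.20 with an adjusted p of 0.00421.

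Scg5, the chaperone gene for the Pcsk2 product, lies at chr2:113776362-113829121 on the minus strand. It held 826, 902 and 838 normalized counts in vehicle, 894, 920 and 917 in OxA 3 h and 724, 820.1 and 816 in OxA 8 h. The OxA 8 h cultures lay below those of the other groups, but against vehicle the difference did not pass the test (log2 fold change -0.13, SE 0.064, adjusted p = 0.143). Against OxA 3 h it did, with a log2 fold change of -0.21 (SE 0.063, adjusted p = 0.0142). Without OxA 8 h replicate 1 that value was -0.16 with an adjusted p of 0.0921.

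Pcsk1n, which encodes proSAAS (chrX:7919822-7924410, plus strand), was highest on average in OxA 3 h and lowest in OxA 8 h, as Scg5 was. Its normalized counts were 560.4, 647 and 661 in vehicle, 727, 606 and 602 in OxA 3 h and 575, 502 and 563 in OxA 8 h. OxA 8 h lay below OxA 3 h in all cultures, and the log2 fold change of Pcsk1n between them was -0.24 (SE 0.080, adjusted p = 0.0284). That call was lost without OxA 3 h replicate 1 (-0.15, adjusted p = 0.176), without OxA 8 h replicate 2 (-0.18, adjusted p = 0.149) and with DESeq2 (-0.24, adjusted p = 0.0544). Against vehicle the log2 fold change was 0.053 at 3 h (adjusted p = 0.655) and -0.19 at 8 h (SE 0.076, adjusted p = 0.0605). The latter passed the threshold without vehicle replicate 1 (-0.26, adjusted p = 0.0216) and without OxA 8 h replicate 1 (-0.24, adjusted p = 0.0337). It also passed with the replicate number as a block (-0.19, adjusted p = 0.0280). Eras, a gene on the opposite strand that overlaps Pcsk1n by 135 exon bases, had 0 to 4 counts per culture.

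Pcsk2, the convertase gene of this set with enough reads for a test, lies at chr2:143546156-143816285 on the plus strand. It held 116, 123 and 110.3 normalized counts in vehicle, 109.9, 134 and 127 in OxA 3 h and 103, 103 and 119.8 in OxA 8 h. The groups overlapped, and the log2 fold changes against vehicle were 0.090 at 3 h (adjusted p = 0.643) and -0.11 at 8 h (adjusted p = 0.587). The 95% intervals of these fold changes ran from 0.878 to 1.29 at 3 h and from 0.766 to 1.12 at 8 h. The antisense genes Pcsk2os1 and Pcsk2os2 overlap Pcsk2, and they had 1 to 8 counts per culture. Chgb (chr2:132781278-132795079, plus strand) held 89.7, 84.0 and 76.8 normalized counts in vehicle, 90.8, 74.1 and 83.8 in OxA 3 h and 78.7, 71.0 and 54.8 in OxA 8 h. Its log2 fold changes were -0.0087 at 3 h (adjusted p = 0.974) and -0.29 at 8 h (SE 0.16, adjusted p = 0.210), with overlapping groups.

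**Figure D3:**
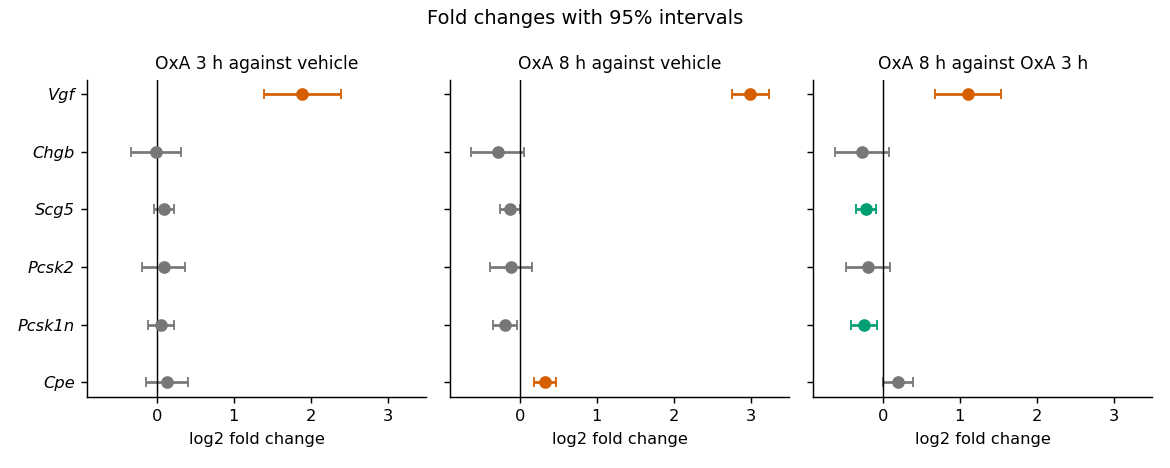
Log2 fold changes of the 6 tested members in the 3 comparisons, with 95% intervals from the edgeR fit. Orange marks a gene called higher, green a gene called lower and gray a gene not called. Vgf is far to the right in each panel (1.89, 2.99 and 1.11), and every other value lies between -0.29 and 0.33.

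Counted over the set, 1 of the 6 tested members (16.7%) rose at 3 h, Vgf, and 0 fell, where 20.2% of all genes tested rose and 18.7% fell. The share that rose was thus near that of all genes. The rates over all genes depend on the scaling at 3 h, with 3104 called higher and 2869 lower by TMM and 2426 higher and 3719 lower by upper-quartile scaling. At 8 h 2 of the 6 (33.3%) rose, Vgf and Cpe, and 0 fell, against 15.3% and 13.1% of all genes. DESeq2 also called 0 members lower at 3 h and at 8 h, and at an unadjusted p under 0.05 in edgeR 0 members were lower at 3 h and 1 (Pcsk1n) at 8 h. Between 3 h and 8 h, 1 of the 6 rose (Vgf) and 2 fell (Scg5 and Pcsk1n), against 13.7% and 14.3% of all genes. The groups did not overlap for 1 tested member at 3 h, 3 at 8 h and 3 between the times. Of all genes tested, the groups did not overlap for 48.1%, 41.2% and 40.5%, and 38.9%, 28.4% and 28.0% were called in either direction. The median log2 fold change of the 6 was 0.092 at 3 h and -0.12 at 8 h, and that of all genes was -0.0040 and -0.0081.

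The rise of Vgf changed the make-up of the set. The summed TPM of the 10 members was 223 to 230 in vehicle, 275 to 326 in OxA 3 h and 388 to 414 in OxA 8 h. Without Vgf the sums were 198 to 204, 196 to 215 and 195 to 202, and these overlapped. Vgf accounted for 10.5 to 12.9% of the sum in vehicle, 28.9 to 34.2% in OxA 3 h and 48.8 to 53.0% in OxA 8 h. Its ratio to Cpe in TPM went from 0.368 to 0.388 in vehicle to 1.21 to 1.36 in OxA 3 h and 2.31 to 2.56 in OxA 8 h. The ratio to Pcsk1n was 0.634 to 0.938 in vehicle and 6.24 to 7.01 in OxA 8 h.

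**Figure D4:**
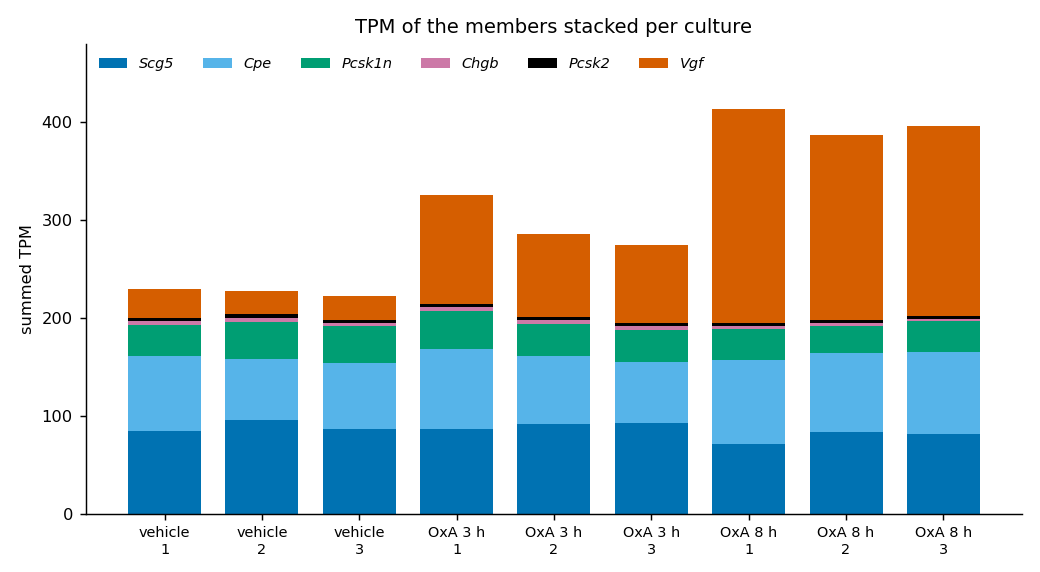
Summed TPM of the members per culture, stacked by gene (colors), with vehicle, OxA 3 h and OxA 8 h cultures 1 to 3 from left to right. Scg3, Chga, Scg2 and Pcsk1 are too low to be drawn. The stack without Vgf has about the same height in every culture, 195 to 215 TPM, and the Vgf segment grows to 48.8 to 53.0% of the sum in OxA 8 h.

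Since VGF and the other precursors can be cut by further proteases, the other convertases were examined. Of 7 listed genes, 5 were tested (Furin, Pcsk5, Pcsk6, Pcsk7 and Mbtps1). Mbtps1, a protease of the Golgi that cuts SREBP and other substrates, had 122 ± 3.94 TPM in vehicle, and Furin, the convertase of the trans-Golgi network that acts in most cells, had 43.8 ± 1.38 TPM. Pcsk7 and Pcsk6 followed at 18.4 ± 1.15 and 10.0 ± 0.298 TPM, all above Pcsk2. At 3 h 1 of the 5 rose and 0 fell by edgeR, with 0 lower also by DESeq2 and at an unadjusted p under 0.05. Of all genes, 20.2% rose and 18.7% fell at 3 h. The gene that rose was Furin, which went from 1630.3 ± 21.6 to 2285 ± 134 normalized counts (log2 fold change 0.49, adjusted p = 3.35e-08). At 8 h Furin was at 1797 ± 125 and was not called against vehicle (0.14, adjusted p = 0.0528), and it fell by 0.35 on the log2 scale from its 3 h level (adjusted p = 8.47e-05). At 8 h Pcsk7 rose (0.19, adjusted p = 0.0345) and Mbtps1 fell (-0.20, adjusted p = 0.000833), while between the times 0 of the 5 rose (also by DESeq2 and at an unadjusted p under 0.05) and 2 fell, Furin and Mbtps1. Of all genes, 15.3% rose and 13.1% fell at 8 h, and 13.7% rose and 14.3% fell between the times. The median of the 5 convertase genes was 0.13 at 3 h and -0.043 at 8 h.

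Among the enzymes that trim, amidate or further degrade peptides, 15 of 18 listed genes were tested, and 1 rose and 0 fell at 3 h by edgeR, with 0 lower also by DESeq2 and at an unadjusted p under 0.05. At 8 h 3 rose and 2 fell. Of all genes 20.2% rose and 18.7% fell at 3 h, and 15.3% and 13.1% at 8 h. The median log2 fold change was 0.037 at 3 h and 0.00062 at 8 h. Pam, the enzyme that gives GnRH and many other peptides their C-terminal amide, stood at 8230 ± 161 normalized counts in vehicle, 8984 ± 519 in OxA 3 h and 10156 ± 326 in OxA 8 h. Its log2 fold change was 0.13 at 3 h (adjusted p = 0.0214) and 0.30 at 8 h (adjusted p = 4.31e-06). With upper-quartile scaling the list held 0 higher and 1 lower call at 3 h and 1 higher and 2 lower calls at 8 h. That scaling called 2426 higher and 3719 lower of all 15352 genes at 3 h, and 1994 and 2515 of 15407 at 8 h. Prep, a prolyl endopeptidase, rose at 8 h (0.17, adjusted p = 0.0293). Prcp, a lysosomal prolyl carboxypeptidase, fell at 8 h (-0.29, adjusted p = 0.000490), as did Pcyox1, which oxidizes prenylcysteine (-0.31, adjusted p = 1.28e-05).

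Genes for the formation and release of dense-core vesicles were measured for 32 of 40 listed, with 2 higher and 6 lower at 3 h and 3 higher and 7 lower at 8 h. Over all genes, 20.2% were higher and 18.7% lower at 3 h, and 15.3% and 13.1% at 8 h, so that the lower calls at 3 h were near the rate of all genes. The list's median log2 fold change was 0.016 at 3 h and -0.059 at 8 h. Rab3a, a GTPase of secretory vesicles, went from 466 ± 32.1 normalized counts in vehicle to 326 ± 5.01 in OxA 3 h and 349 ± 54.9 in OxA 8 h (log2 fold changes -0.51 and -0.43, adjusted p = 1.59e-05 and 0.00135). Cadps, which primes dense-core vesicles for fusion, fell at 3 h (-0.35, adjusted p = 0.000217) and was higher at 8 h than at 3 h (0.34, adjusted p = 0.000868). Pick1, a protein of vesicle budding, fell at 3 h (-0.37, adjusted p = 0.00166), and Dnajc5, a vesicle chaperone, rose (0.26, adjusted p = 0.000256). At 8 h Rab27b, another GTPase of secretory granules, fell (-0.37, adjusted p = 2.61e-05), as did the calcium sensor gene Syt9 (-0.45, adjusted p = 0.00264). Sytl5, which encodes a Rab27 effector, rose (0.35, adjusted p = 0.00481). By upper-quartile scaling the list held 1 higher and 6 lower calls at 3 h and 2 higher and 9 lower at 8 h. Over all genes that scaling also gave more lower calls, with 2426 higher and 3719 lower of 15352 at 3 h. At 8 h it gave 1994 higher and 2515 lower of 15407.

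The neuropeptide and peptide hormone precursors were mostly silent in this line, with 9 of 59 listed genes at 2 TPM or more in vehicle and 12 tested at 3 h and at 8 h. Gnrh1, the precursor the line is known for, had 16258 ± 1203 normalized counts in vehicle, 16872 ± 797 in OxA 3 h and 12847 ± 515 in OxA 8 h. It was not called at 3 h (0.057, adjusted p = 0.390) and fell at 8 h (-0.35, adjusted p = 1.73e-05). Vgf, at 200.8 TPM in OxA 8 h, thus remained well below Gnrh1 in TPM (3924 ± 304 TPM in vehicle and 2986 ± 85.3 TPM in OxA 8 h). The other call at 8 h was Apln, the apelin precursor, which rose (0.39, adjusted p = 0.0115). Of all genes tested, 15.3% rose and 13.1% fell at 8 h, and 20.2% and 18.7% at 3 h. At 3 h 0 of the 12 rose by edgeR and by DESeq2, and 1 was higher at an unadjusted p under 0.05. The one call was a fall of Nmb, the neuromedin B precursor (-0.96, adjusted p = 0.0226), named here after its value was seen since its mean was 18.3 normalized counts.

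Transcriptional regulators known to act on neuroendocrine genes were tested for 16 of 21 listed, and 9 rose and 2 fell at 3 h, where 20.2% of all genes rose and 18.7% fell. At 8 h 5 rose and 1 fell, where 15.3% of all genes rose and 13.1% fell. With upper-quartile scaling these counts were 5 and 2 at 3 h and 4 and 2 at 8 h. All genes then gave 2426 higher and 3719 lower calls of 15352 at 3 h, and 1994 and 2515 of 15407 at 8 h. Rest, the repressor that keeps neuronal and granin genes silent in most non-neuronal cells, went from 1750.3 ± 27.3 normalized counts in vehicle to 3566 ± 111 in OxA 3 h and 2008 ± 114 in OxA 8 h. Its log2 fold change was 1.03 at 3 h (adjusted p = 1.72e-14), and between 3 h and 8 h it fell by 0.83 (adjusted p = 8.79e-11). Rest was still called higher than vehicle at 8 h, by edgeR and by DESeq2. Egr1, an immediate early factor, rose at 3 h (1.71, adjusted p = 1.70e-14) and at 8 h (0.81, adjusted p = 1.85e-07). Nr3c1, the glucocorticoid receptor gene, rose at both times (0.51 and 0.45, adjusted p = 1.63e-08 and 1.84e-06). Pax6, a factor of neuroendocrine development, fell at 3 h (-0.65, adjusted p = 0.0113). Insm1, another such factor, rose at 3 h (0.36, adjusted p = 0.0478) and fell below vehicle at 8 h (-0.44, adjusted p = 0.0276). The CREB family gene Atf1 rose at 3 h (0.37, adjusted p = 9.11e-05) and at 8 h (0.28, adjusted p = 0.00417). Creb1 fell at 3 h (-0.25, adjusted p = 0.00290) and was higher at 8 h than at 3 h (0.29, adjusted p = 0.00188), with no call against vehicle at 8 h (0.031, adjusted p = 0.799). Of the list genes named above, the calls of Pam at 3 h and of Pcsk7 and Prep at 8 h were lost with upper-quartile scaling. Those of Nmb and Pax6 at 3 h and of Pcsk7, Prep and Insm1 at 8 h were lost with DESeq2, and that of Insm1 at 3 h with DESeq2 and with upper-quartile scaling.

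**Figure D5:**
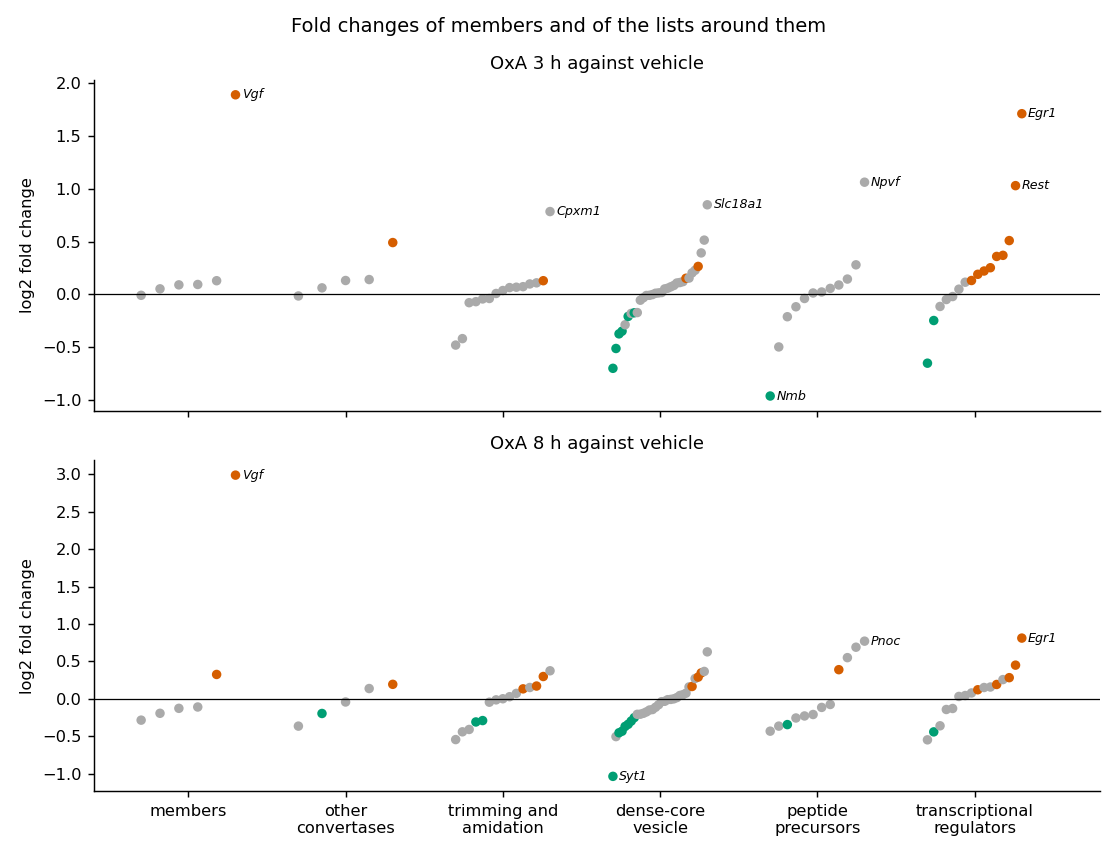
Log2 fold changes of the 6 tested members and of the tested genes of 5 lists around them, each list drawn from its lowest to its highest gene, at 3 h (upper panel) and 8 h (lower panel) against vehicle. Orange marks genes called higher, green genes called lower and gray genes not called, and genes past an absolute value of 0.75 are named. Vgf has the highest value of any gene drawn, 1.89 at 3 h and 2.99 at 8 h, and Egr1 comes next at 3 h with 1.71.

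To find genes with a profile like that of Vgf, its log2 CPM over the 9 cultures was correlated with that of 11786 genes that averaged 50 normalized counts or more. The 5 nearest were Chst11 (r = 0.998), Prkg2 (0.995), Ap1s1 (0.994), Col6a3 (0.994) and Pcolce2 (0.993). Each of these coefficients is a description over 9 cultures that share 3 treatments, and a gene that climbs in steps from vehicle to OxA 3 h and OxA 8 h will score high. Chst11, a chondroitin sulfotransferase gene, averaged 243 normalized counts in vehicle, 535 in OxA 3 h and 838 in OxA 8 h. Prkg2, a cGMP-dependent protein kinase gene, averaged 83.9, 343 and 715, with a log2 fold change at 8 h of 3.09 that was close to that of Vgf. Ap1s1, a subunit gene of the clathrin adaptor of the trans-Golgi network, averaged 1119, 1935 and 2421. Col6a3, a collagen VI chain gene, averaged 71.8, 208 and 452, and Pcolce2, whose product enhances procollagen cleavage, averaged 214, 374 and 514. Within the set, Vgf ran closest to Cpe (r = 0.774), and its coefficients with the other 4 tested members lay between -0.49 and -0.32. Among the pairs without Vgf, the coefficients ran from -0.63 (Scg5 and Cpe) to 0.728 (Pcsk2 and its chaperone gene Scg5). Pcsk2 was not called in any comparison.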

How the data were processed

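RNA was sequenced from 9 cultures, which were all used and were grouped by the sample labels. For alignment the authors used STAR 2.5.2a with mm10, and for counting per gene symbol HTSeq 0.6.0. The strand setting and the gene annotation of the counting are not given in the sources used here. The tests here used the raw read counts per gene as the authors deposited them. The TPM values deposited by the authors were used for levels and for ratios between genes. The authors' tables of comparisons, which hold fold changes and p-values, and their normalized counts were not used.

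Each comparison was fitted on its own 2 groups with edgeR 4.0.16 under R 4.3.3, using filterByExpr, TMM factors (0.969 to 1.05), a robust quasi-likelihood fit, and Benjamini-Hochberg adjustment over all genes kept. Genes were called at an adjusted p under 0.05. For values per culture, counts were brought to the mean library with the TMM factors. The fit was tested on simulated data. Alternatives were RLE and upper-quartile scaling, no filter, DESeq2 1.42.0, all 3 groups in one fit, the replicate number as a block, and each replicate left out. Intervals on single low counts and floors of 3 counts cover counting error only. By the study's methods, culture, treatment and RNA isolation were carried out anew for each replicate. The sources do not say that a replicate number marks one such run or whether passages differed, so p-values measure the spread between these cultures. Deviations from the group means correlated at 0.0076 to 0.16 between cultures of the same number.

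The 10 members and the gene lists were chosen with earlier results of these data known. Named were all members, from each list up to 4 called genes with the largest change and a mean of at least 50 normalized counts, Furin, Pam and Gnrh1, and the 5 genes most correlated with Vgf (log2 CPM, prior count 2). Gene positions are from GENCODE M21 (GRCm38, the build also called mm10) and promoters from RefSeq (GRCm38.p6). Some genes are not reported here.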

Additional observations from a re-analysis of the deposited data

Results flagged for a closer look

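In 3 of the 6 tested members the OxA 8 h cultures differed from the OxA 3 h cultures by edgeR's quasi-likelihood test. In the same comparison 28.0% of all genes tested were called in either direction. With no vehicle at 3 h, the length of OxA treatment and the time since the medium change cannot be told apart in this comparison. The difference was 1.11 on the log2 scale for Vgf (SE 0.16, adjusted p = 0.00753), with all OxA 8 h cultures above all OxA 3 h cultures. It was -0.24 for Pcsk1n (SE 0.080, adjusted p = 0.0284) and -0.21 for Scg5 (SE 0.063, adjusted p = 0.0142), with all OxA 8 h cultures below. Such a lack of overlap was seen for 40.5% of all genes tested. Over 12 alternative fits, Vgf passed the threshold in 12, Scg5 in 11 and Pcsk1n in 9. The groups of 3 cultures were too small for a test of single outlying cultures.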

How the results depend on the processing

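Of 216 refits of the log2 fold changes of the 6 tested members, 197 kept direction and side of the threshold, and Vgf was called in all of its own, at 1.71 to 2.0 at 3 h, 2.91 to 3.11 at 8 h and 0.99 to 1.28 between the times. The count of members higher at 8 h went from 2 to 1 with all 3 groups in one fit. The count lower at 8 h went from 0 to 1 (Pcsk1n) with upper-quartile scaling and with no filter, and was 0 to 1 with single cultures left out. Between the times, the count of higher members went from 1 to 2 (Cpe) with upper-quartile scaling and with no filter, and was 1 to 2 with single cultures left out. The count of lower members went from 2 to 1 with DESeq2 and was 1 to 2 with single cultures left out. Signs turned only in values that were never called: Chgb at 3 h (-0.083 to 0.056 with single cultures left out) was 0.056 without OxA 3 h replicate 2 and 0.043 without vehicle replicate 1, and Pcsk1n at 3 h (-0.047 to 0.10 likewise) was -0.0076 with upper-quartile scaling, -0.047 without OxA 3 h replicate 1 and -0.021 without vehicle replicate 1. The cause was not tested.

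With the replicate number as a block, the members lower at 8 h went from 0 to 1 (Pcsk1n, adjusted p = 0.0280), the members higher between the times from 1 to 2 (Cpe, adjusted p = 0.00421), and all calls from 5973 to 6500 at 3 h, 4377 to 5558 at 8 h and 4277 to 5348 between the times. The block changed no other call of a member. Same-numbered cultures correlated positively in every pair, but not every culture correlated best with its own number, and whether the numbers mark runs is not given in the sources used here. Depth limits Chga, Scg2, Scg3 and Pcsk1, and no vehicle at 3 h was analysed here.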

Other observations

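Ap1s1, the third nearest gene to Vgf in profile, was also its nearest neighbor downstream. In GENCODE M21 it lies on chromosome 5 from 137034993 to 137046135 on the minus strand, and 1641 bases separate it from the end of Vgf. Vgf and Ap1s1 thus face each other end to end, and the strand setting of the counting is not given. Whether reads running past the end of Vgf were counted for Ap1s1 was not tested. The genes within 100 kb of Vgf were looked up after this was seen, and those given here are not all of them. Ap1s1 rose from 1119 ± 42.6 normalized counts in vehicle to 2421 in OxA 8 h (log2 fold change 1.11, SE 0.053, edgeR adjusted p = 1.21e-13). Plod3, a lysyl hydroxylase gene, rose at 8 h by 0.55 on the log2 scale (adjusted p = 4.28e-05) and Trim56, a ubiquitin ligase gene, by 0.20 (adjusted p = 0.00113). The lincRNA 4933404O12Rik fell (-0.36, adjusted p = 0.00234), and Fis1, Znhit1 and Cldn15 were not called at 8 h (adjusted p = 0.110, 0.945 and 0.812). Trim56 and 4933404O12Rik had changed more at 3 h (0.56 and -0.96, adjusted p = 3.21e-10 and 1.00e-08). From 3 h to 8 h they moved back (-0.35 and 0.61, adjusted p = 4.00e-06 and 6.50e-05), unlike Vgf. Of the 8 neighbors tested, 4 rose and 1 fell at 8 h, where 15.3% of all genes rose and 13.1% fell. Neighbors are not independent of each other, and no test of position was made.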
